A study of Homo sapiens with 6 samples.

Results

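Chromatin regulators and histones were the genes examined here, in HepG2 cells that had received an siRNA against the long noncoding RNA H19. They were chosen by symbol from the authors' deposited table of changed genes: names of the ARID, KDM, KMT, MLL, SMARC, CHD, HDAC, SETD, HIST, BRD, BAZ, DNMT, UHRF, PHF, KAT, EZH, CBX, TET, ASXL, HMGA, HMGB and HMGN families, with ATAD2, EP300, EP400 and a few others. This gave 26 of the 1998 listed genes. HepG2 is an established human liver cancer line that keeps many hepatocyte functions. Cells grown in 6-well plates received control siRNA (siCon, 3 libraries) or H19 siRNA (siH19, 3 libraries), were collected 48 h later, and their total RNA was sequenced after removal of ribosomal RNA. The labels give no siRNA sequences, and the level of H19 itself was not analysed here. Hepatocyte transcripts were abundant in both groups and lower in siH19: the authors' deposited table gave albumin (ALB) a log2 count of 15.66 in siCon and 15.00 in siH19, and alpha-fetoprotein (AFP) 15.28 and 14.93. All 5 hepatocyte markers looked up were lower, with log2 fold changes of -0.88 for TTR, -0.70 for APOB, -0.67 for ALB, -0.60 for SERPINA1 and -0.35 for AFP in the authors' deposited table, and their part in the changes of chromatin genes was not tested. The table holds 1 combined value per group and gene, so values per library were not used. It holds called genes only, with an adjusted p under 0.05, so chromatin genes that it does not list could not be counted as unchanged.

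DNA in the nucleus is wrapped around core histones, and linker histones bind the DNA between these units. Enzymes add and remove methyl and acetyl groups on histone tails, reader proteins bind those marks, and remodelers use ATP to slide or evict histones. Methylation of cytosines in DNA is copied at replication by DNMT1 with UHRF1, and TET enzymes oxidise it. In hepatocytes these proteins help to keep liver genes active and fetal or proliferative genes silent.

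Most of the listed chromatin genes were higher in siH19. Of the 26, 17 (65.4%) were higher and 9 (34.6%) lower, whereas of all listed genes 44.7% were higher and 55.3% lower. Their median log2 fold change (siH19 minus siCon) was 0.32 in the authors' deposited table, against -0.27 for all listed genes. As only called genes are listed, values near 0 are missing, and such a median mainly follows the direction of most genes. Among all listed genes the median was 0.46 for the higher and -0.44 for the lower ones, so the 2 medians add little to the shares. As the members were chosen with results known, these shares and medians are a description and were not tested. The changes were small: the fold ran from 1.16 to 1.73, and none of the 26 reached the 2-fold change that 83 of the 1998 listed genes reached. An absolute log2 fold change of at least 0.5 was listed for 6 of the 26 (23.1%) and for 41.2% of all listed genes. An adjusted p under 0.01 was listed for 12 of the 26 (46.2%) and for 64.8% of all listed genes. The median absolute log2 fold change was 0.37 for the 26 and 0.45 for all listed genes. Their median mean normalized count was 902, against 640 for all listed genes, and the median standard error (SE) was 0.11 in both. In bulk RNA such as this, fewer cells of a type or state and less RNA per cell cannot be told apart.

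**Figure D1:**
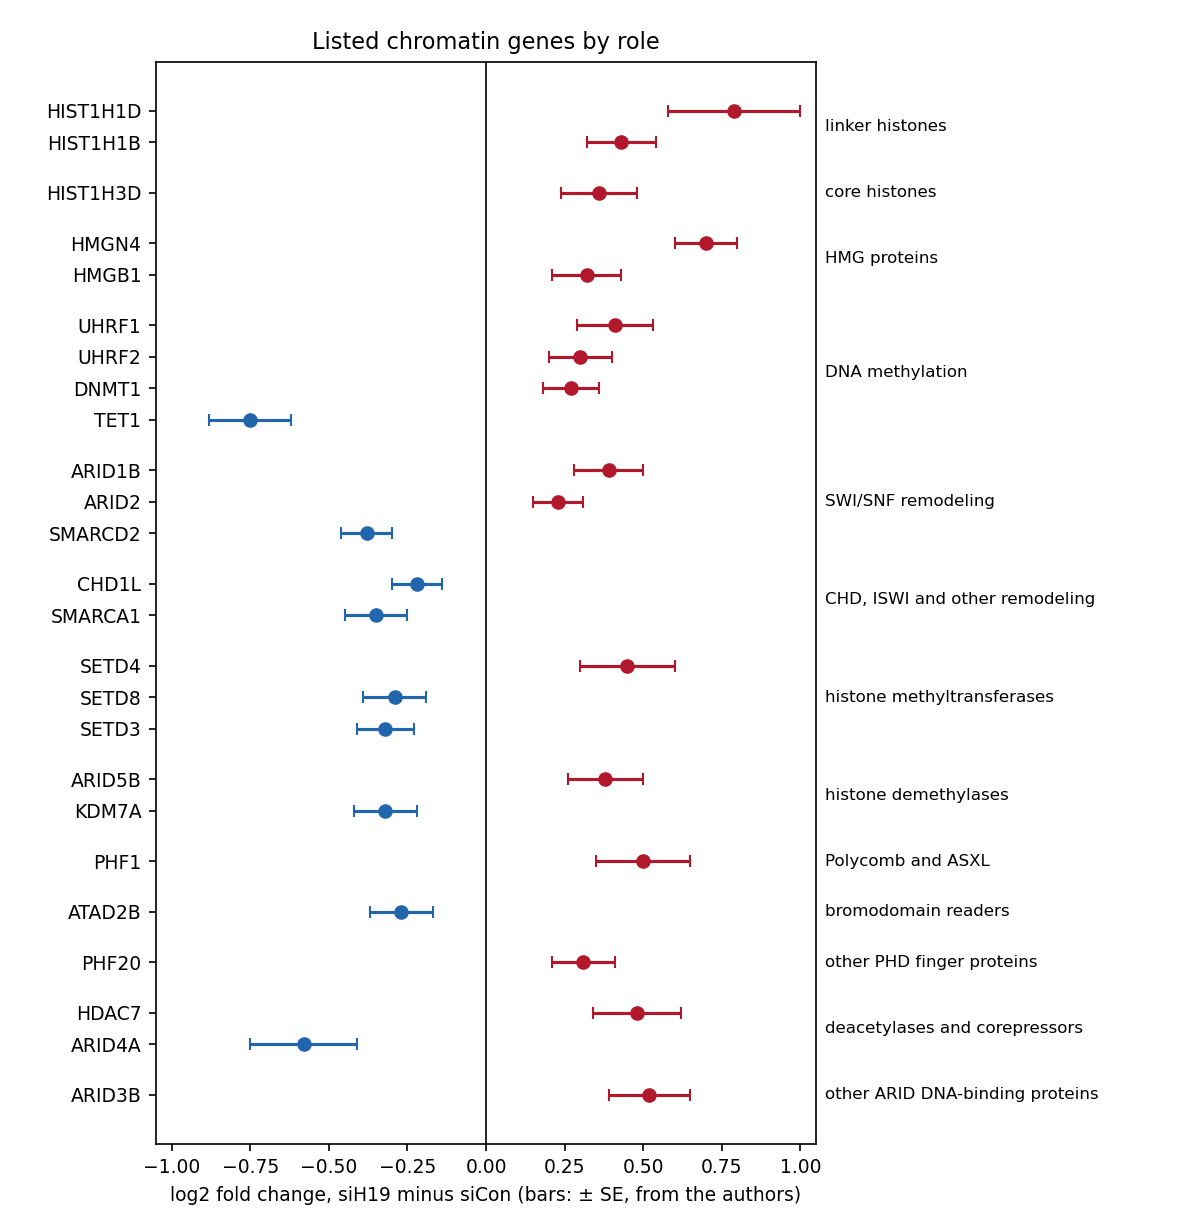
Log2 fold change (siH19 minus siCon, x axis) of 25 of the 26 listed chromatin genes, grouped by role; points are the authors' values and bars ± 1 SE. The histones and HMG proteins all lie right of 0, though the count of HIST1H3D cannot be told apart from that of an overlapping gene. TET1 lies farthest left at -0.75, and the 3 roles with 3 or more genes shown each hold both directions.

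**Figure D2:**
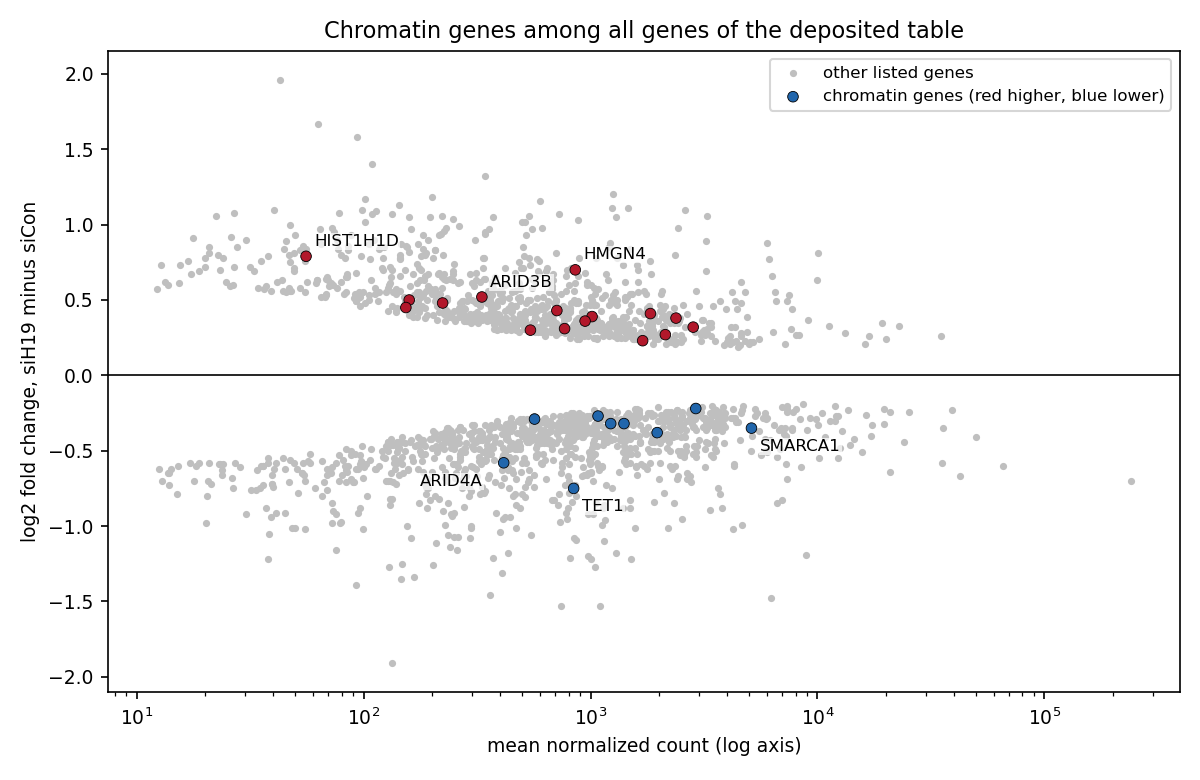
Log2 fold change (y axis) against mean normalized count (x axis, log scale) for the genes of the deposited table; 25 of the 26 chromatin genes are coloured, red for higher and blue for lower in siH19, and all others are grey. The coloured points lie mostly near the inner edge of the grey cloud, with HIST1H1D, HMGN4 and TET1 farther out.

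The largest rise was that of a histone gene. All 3 listed histones were higher: the linker histones HIST1H1D and HIST1H1B (H1.3 and H1.5), which bind DNA between the histone cores, and the core histone gene HIST1H3D. For HIST1H1D, the authors' deposited table gave a log2 count of 5.36 in siCon and 6.14 in siH19, a log2 fold change of 0.79 ± 0.21 (SE) with an adjusted p of 0.00175. This was the largest change of all 26 genes, 1.73-fold, at the lowest mean normalized count among them, 55.8. HIST1H1B stood at 9.24 in siCon and 9.67 in siH19 in the authors' deposited table, a log2 fold change of 0.43 ± 0.11 with an adjusted p of 9.53e-04. HIST1H3D had log2 counts of 9.69 and 10.06 in the authors' deposited table, a log2 fold change of 0.36 ± 0.12 with an adjusted p of 0.0152. Its count cannot be told apart from that of an overlapping coding gene on the same strand, as described below. Such replication-dependent histone mRNAs mostly end in a stem-loop and not in a poly(A) tail, and total RNA libraries such as these can hold them. The annotation of GENCODE release 29 has 71 coding genes with HIST names, so most of the family is not in the list and its direction was not analysed here.

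Replication genes, which are active with histone synthesis in S phase, were looked up after these values were seen, and their part in the result was not tested. Of 31 replication symbols 5 were listed, 4 higher and 1 lower: the authors' deposited table gave GINS3 0.40 ± 0.11, UNG 0.35 ± 0.08, FEN1 0.32 ± 0.08, MCM3 0.29 ± 0.08 and RPA2 -0.46 ± 0.11. Of 9 symbols assigned here to later cell cycle stages 3 were listed and all were lower, AURKA (-0.62 ± 0.07), TOP2A (-0.48 ± 0.12) and CCNA2 (-0.28 ± 0.08), in the authors' deposited table. Of all listed genes 44.7% were higher and 55.3% lower. With so few genes listed from either group of symbols, no contrast between stages can be drawn.

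The 250 bases before the transcription start of these 3 genes are shown because histone genes are known for short shared promoter elements. Sequences are from RefSeq (GRCh38.p14), a different build from the hg19 of the submitters' processing notes, were matched by older symbol, and run 5′ to 3′ on the minus strand. Capitals mark AAACACA (the H1 box of linker histone genes), CCAAT and TATATA on either strand.
HIST1H1B, chr6:27867589-27867838: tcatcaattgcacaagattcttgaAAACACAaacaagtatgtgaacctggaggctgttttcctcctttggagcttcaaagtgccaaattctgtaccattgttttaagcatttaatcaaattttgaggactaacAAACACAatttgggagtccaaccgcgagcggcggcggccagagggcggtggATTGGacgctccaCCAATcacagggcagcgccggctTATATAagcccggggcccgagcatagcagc
HIST1H1D, chr6:26234988-26235237: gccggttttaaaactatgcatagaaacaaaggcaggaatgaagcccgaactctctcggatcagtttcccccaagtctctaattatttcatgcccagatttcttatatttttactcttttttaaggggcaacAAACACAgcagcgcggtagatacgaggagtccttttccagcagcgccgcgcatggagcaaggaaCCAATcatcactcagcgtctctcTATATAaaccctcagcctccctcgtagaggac
HIST1H3D, chr6:26197287-26197536: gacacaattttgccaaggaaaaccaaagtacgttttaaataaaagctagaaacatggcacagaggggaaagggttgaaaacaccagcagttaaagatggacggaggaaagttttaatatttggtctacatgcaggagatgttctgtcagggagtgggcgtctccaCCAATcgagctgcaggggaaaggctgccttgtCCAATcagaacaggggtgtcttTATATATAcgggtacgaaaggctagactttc

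AAACACA began 117 bases before the start in HIST1H1B, with a further match at 226, and 119 bases before it in HIST1H1D. It was not found in this window of HIST1H3D. CCAAT or its reverse complement began 66 and 53 bases before the start in HIST1H1B, 55 in HIST1H1D, and 85 and 53 in HIST1H3D. TATATA began 30 bases before the start in HIST1H1B, 32 in HIST1H1D, and 31 and, overlapping, 29 in HIST1H3D. Of 35116 RefSeq windows of the same length, 4.82% held AAACACA, 32.0% CCAAT and 3.73% TATATA. RefSeq gives HIST1H3D a second start farther upstream, whose window held CCAAT at 151, 86 and 68 bases and neither of the other 2 words. A match is a description of the letters and shows no binding. Among the 23 of 26 genes with a RefSeq window (the others include ARID2 and ARID3B), TATATA was found in the 3 histone genes and in no other, and AAACACA also in windows of ARID5B and TET1. CCAAT was found in 11 of the 23. These 23 genes have 37 windows, and a gene was counted if any of its windows held the word. Counts of genes are therefore not on the same scale as the shares of windows. TTTCCCGC, a form of the E2F site found in many replication genes, was in windows of UHRF1 and PHF20 and in 1.39% of all windows, and TTTGGCGC in none of the 23 genes and 0.55% of all windows.

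**Figure D3:**
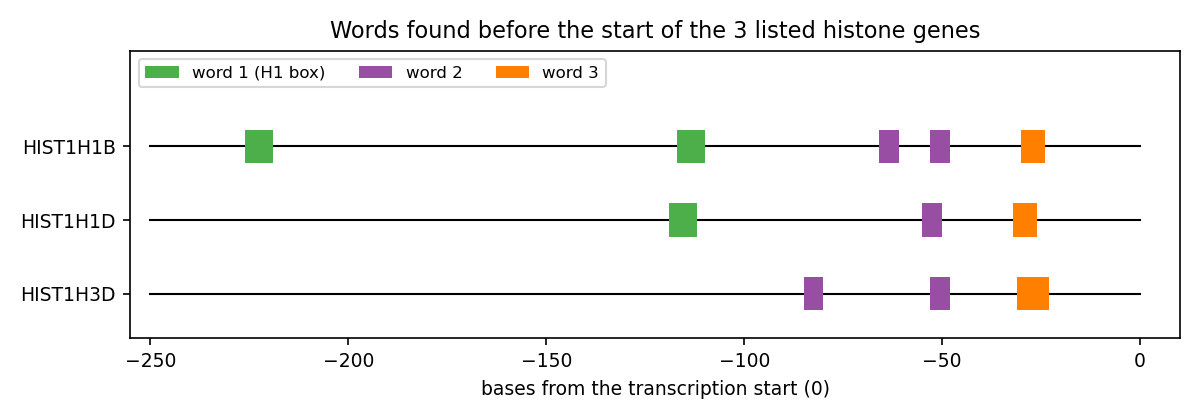
Position of 3 words (word 1, the H1 box; word 2, the CCAAT word; word 3, the TATATA word) in the 250 bases before the start of the 3 listed histone genes; the x axis is the distance from the start in bases and, for HIST1H3D, the start nearer the coding sequence is shown. Word 3 lies about 30 bases before the start in all 3 genes, and word 1 appears in the 2 linker histone genes.

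The 3 histone genes lie within 1.67 Mb on chromosome 6 (GENCODE, GRCh38), and HMGN4 lies between them. The listed genes from 0.5 Mb before the first to 0.5 Mb after the last were these 4 and PGBD1, which alone is no member of the set. All 5 were higher, with PGBD1 at 0.66 ± 0.17 in the authors' deposited table, as were 44.7% of all listed genes. The stretch was drawn around genes already seen to be higher, so this count is no separate result. A part of the region in these changes was not tested. HMGN4 encodes a small protein that binds nucleosomes, the wrapped histone units. Its log2 count was 9.35 in siCon and 10.05 in siH19 in the authors' deposited table, a log2 fold change of 0.70 ± 0.10, or 1.62-fold, with an adjusted p written as 0, below the precision of the table. The other listed HMG gene was HMGB1, an abundant protein that bends DNA and acts as an alarm signal outside cells, at 11.30 and 11.62 with a log2 fold change of 0.32 ± 0.11 and an adjusted p of 0.0364 in the authors' deposited table.

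Genes of DNA methylation moved apart. The maintenance methyltransferase DNMT1, its partner UHRF1, which reads half-methylated DNA, and the UHRF1 paralog UHRF2 were higher, and TET1, a dioxygenase that oxidises 5-methylcytosine, was lower. TET1 had the largest fall of the 26 genes: the authors' deposited table gave log2 counts of 10.05 in siCon and 9.30 in siH19, a log2 fold change of -0.75 ± 0.13, or 1.68-fold lower, with an adjusted p written as 0. UHRF1 stood at 10.62 and 11.03 in the authors' deposited table, a log2 fold change of 0.41 ± 0.12 with an adjusted p of 0.00929. For DNMT1 the authors' deposited table gave 10.92 and 11.19, a log2 fold change of 0.27 ± 0.09 with an adjusted p of 0.0246. UHRF2 changed by 0.30 ± 0.10 with an adjusted p of 0.0272 in the authors' deposited table. The rises of DNMT1 and UHRF2 are each 3 times their SE, while the fall of TET1 is 5.77 times its SE. No other TET or DNMT gene is listed. Of 20 further symbols of methylation readers and demethylation, 1 was listed: IDH1, whose enzyme makes the 2-oxoglutarate that TET enzymes use, at -0.37 ± 0.08 in the authors' deposited table. The methyl-DNA reader MBD2, placed here with the deacetylase complexes, was lower by more, at -0.60 ± 0.14 in the authors' deposited table.

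**Figure D4:**
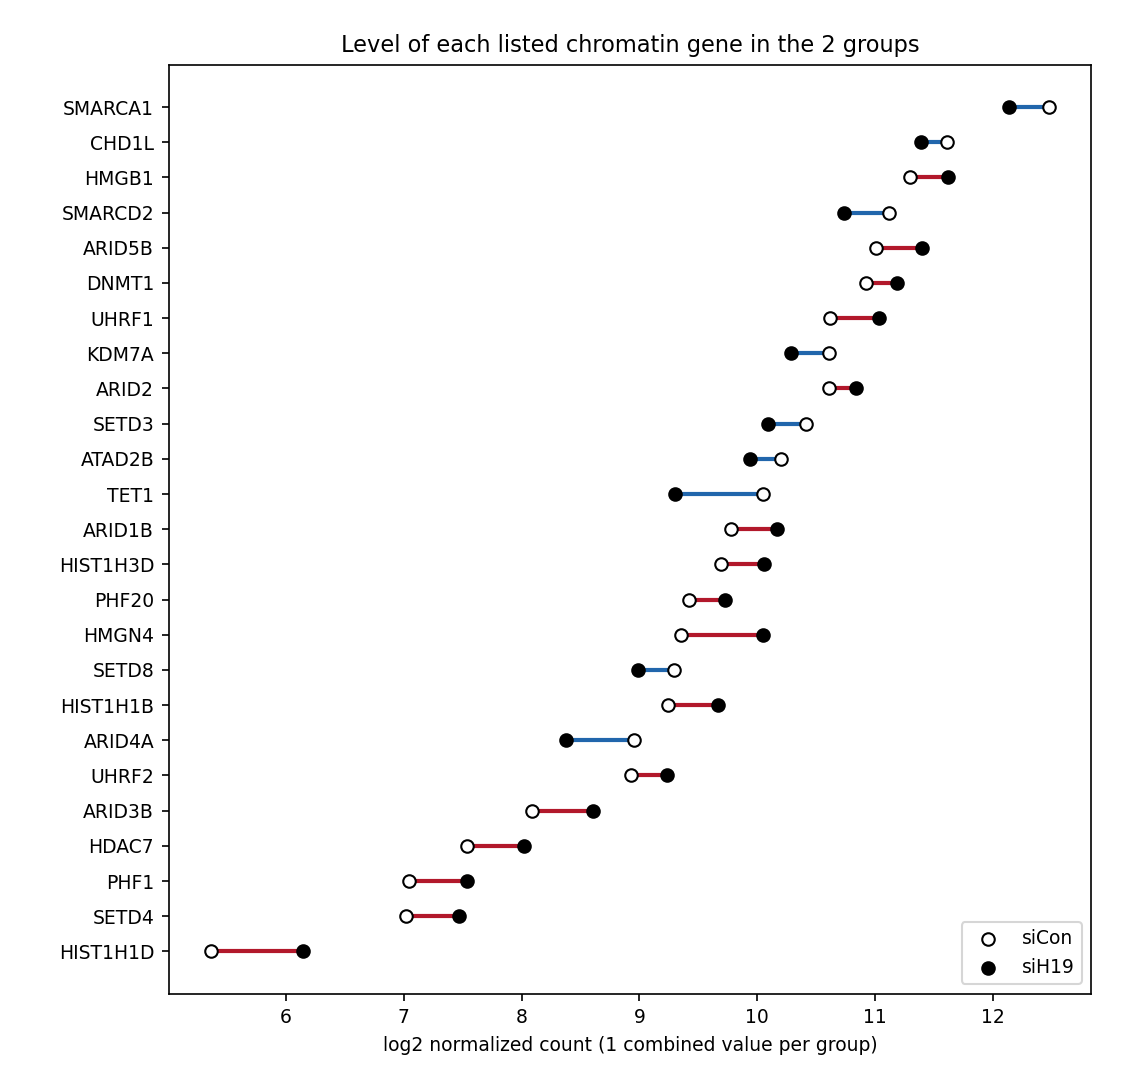
Log2 normalized count (x axis) of 25 of the 26 listed chromatin genes in siCon (open circles) and siH19 (filled circles), 1 combined value per group, ordered by the siCon level; connecting lines are red where siH19 is higher and blue where it is lower. The 9 blue lines lie at siCon levels of 8.95 or more, and the genes below that level are all red.

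ATP-dependent remodelers changed in both directions. In the SWI/SNF family, which evicts and slides histones at enhancers and promoters, ARID1B and ARID2 were higher and SMARCD2 was lower. ARID1B, a DNA-binding subunit of the BAF form, had log2 counts of 9.78 in siCon and 10.17 in siH19 in the authors' deposited table, a log2 fold change of 0.39 ± 0.11 with an adjusted p of 0.00312. ARID2, which defines the PBAF form, stood at 10.61 and 10.84 in the authors' deposited table, a log2 fold change of 0.23 ± 0.08 with an adjusted p of 0.0283. SMARCD2, an accessory subunit also called BAF60B, fell from 11.12 to 10.74 in the authors' deposited table, a log2 fold change of -0.38 ± 0.08 with an adjusted p of 7.10e-05. The catalytic subunits SMARCA2 and SMARCA4 are not listed. Of 49 further remodeling symbols, the 4 listed were all higher: SS18L1 (0.49 ± 0.12), SS18 (0.28 ± 0.09) and DPF2 (0.25 ± 0.09) of the SWI/SNF family, and HELLS (0.29 ± 0.10), a remodeler needed for DNA methylation, in the authors' deposited table. Thus 5 of the 6 listed SWI/SNF genes were higher, with SMARCD2 the exception.

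The 2 remodelers outside that family among the 26, SMARCA1 and CHD1L, were lower, whereas HELLS was higher. SMARCA1 encodes SNF2L, an ATPase of the ISWI family that spaces nucleosomes, and had the highest mean normalized count of the 26 genes, 5118. It fell from a log2 count of 12.48 in siCon to 12.14 in siH19 in the authors' deposited table, a log2 fold change of -0.35 ± 0.10 with an adjusted p of 0.00935. CHD1L, a remodeler recruited to damaged DNA by poly(ADP-ribose), stood at 11.61 and 11.39 in the authors' deposited table, and its log2 fold change of -0.22 ± 0.08, with an adjusted p of 0.0310, was the smallest of the 26. CHD1L overlaps the listed gene FMO5 on the opposite strand, which was also lower at -0.34 ± 0.08 in the authors' deposited table, and whether reads were shared was not tested.

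Genes placed here with the writers and erasers of histone methylation, not all of them such enzymes, changed by modest amounts in both directions. SETD8, also called KMT5A, which places a single methyl group on lysine 20 of histone H4, changed by -0.29 ± 0.10 in the authors' deposited table, with an adjusted p of 0.0326. SETD3, named for its SET domain and known as the enzyme that methylates a histidine of actin, stood at 10.41 in siCon and 10.09 in siH19 with a log2 fold change of -0.32 ± 0.09 and an adjusted p of 0.00594 in the authors' deposited table. SETD4, another SET-domain protein, was higher, from 7.02 to 7.47 with a log2 fold change of 0.45 ± 0.15 and an adjusted p of 0.0180 in the authors' deposited table. Of the erasers, KDM7A, a demethylase of repressive marks on histone H3, was lower, at -0.32 ± 0.10 with an adjusted p of 0.0137 in the authors' deposited table. ARID5B, a DNA-binding protein that works with the demethylase PHF2, rose from 11.01 to 11.40 with a log2 fold change of 0.38 ± 0.12 and an adjusted p of 0.0171 in the authors' deposited table. Of 40 further symbols of methyltransferases and their subunits 2 were listed, SMYD2 higher (0.30 ± 0.09) and DOT1L lower (-0.27 ± 0.10) in the authors' deposited table. Of 16 further demethylase symbols the 2 listed were higher, RCOR2 (0.87 ± 0.16), a corepressor that partners the demethylase KDM1A, and HR (0.86 ± 0.18), a JmjC protein, in the authors' deposited table. These 2 rises are larger than that of any of the 26 genes, at low mean normalized counts of 147 and 85.6. They exceed the rise of HIST1H1D (0.79 ± 0.21) by less than its SE.

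Polycomb proteins, which keep genes silent through histone H3 and H2A marks, were represented by PHF1, an accessory subunit of the H3 methyltransferase complex PRC2. It rose from a log2 count of 7.04 in siCon to 7.54 in siH19 in the authors' deposited table, a log2 fold change of 0.50 ± 0.15 with an adjusted p of 0.0110. Among 37 further Polycomb symbols 9 were listed, 5 higher and 4 lower, led by PHC1 (0.57 ± 0.18), a subunit of the H2A-modifying complex PRC1, and MTF2 (0.54 ± 0.09), a paralog of PHF1, in the authors' deposited table. The core PRC2 subunit SUZ12 was lower (-0.32 ± 0.09) and its partner RBBP4 higher (0.29 ± 0.09) in the authors' deposited table. EZH1, EZH2 and all CBX and ASXL genes are absent from the list.

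Readers and corepressors completed the set. HDAC7, a class IIa deacetylase, rose from 7.54 to 8.02 in the authors' deposited table, a log2 fold change of 0.48 ± 0.14 with an adjusted p of 0.00781. ARID4A, a retinoblastoma-binding subunit of the SIN3 deacetylase complex, had the second largest fall, from 8.95 in siCon to 8.38 in siH19 in the authors' deposited table, a log2 fold change of -0.58 ± 0.17 with an adjusted p of 0.00921. Among the other deacetylase-complex symbols 4 of 34 were listed, 2 in each direction, with MBD2 at -0.60 ± 0.14 and the SIN3 subunit BRMS1L at 0.40 ± 0.11 in the authors' deposited table.

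ATAD2B, a bromodomain protein that reads acetylated histones, stood at 10.20 and 9.94 with a log2 fold change of -0.27 ± 0.10 and an adjusted p of 0.0370 in the authors' deposited table. PHF20, a reader in the acetyltransferase complex of KAT8, stood at 9.42 and 9.73 with a log2 fold change of 0.31 ± 0.10 and an adjusted p of 0.0172 in the authors' deposited table. ARID3B, which binds AT-rich DNA, was among the larger rises, from 8.09 to 8.61 with a log2 fold change of 0.52 ± 0.13 and an adjusted p of 5.73e-04 in the authors' deposited table. No gene with a KAT or BRD symbol was listed, nor was EP300 or EP400. Of 63 further symbols of acetyltransferase complexes 10 were listed, 3 higher and 7 lower, with the largest changes at ELP4 (-0.55 ± 0.16), a subunit of Elongator, and YEATS4 (-0.54 ± 0.13), an acetyl-lysine reader, in the authors' deposited table. The lower genes also include ELP3, IKBKAP and NAA50, so this count depends on how widely the list was drawn.

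Across all 402 further chromatin symbols, 43 were listed, 21 higher and 22 lower. Their share of lower genes was 51.2%, beside 55.3% of all listed genes and 34.6% of the 26. Their median log2 fold change was -0.24, and that of these and the 26 together was 0.25. Histone chaperone and processing genes were 1 higher and 3 lower, with LSM11, a part of the U7 particle that trims histone mRNA ends, at -0.42 ± 0.12 and the assembly factor CHAF1B at 0.36 ± 0.09 in the authors' deposited table. Architecture and cohesin genes were 2 in each direction, with the condensin SMC2 at -0.36 ± 0.10 and the insulator protein CTCF at 0.28 ± 0.08 in the authors' deposited table. Other readers were 1 higher and 2 lower, with the nuclear body protein SP100 at -0.41 ± 0.15 and TCF20 at 0.32 ± 0.08 in the authors' deposited table. None of 16 symbols of histone variants and other histone genes and none of 24 of histone ubiquitination and kinases was listed.

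**Figure D5:**
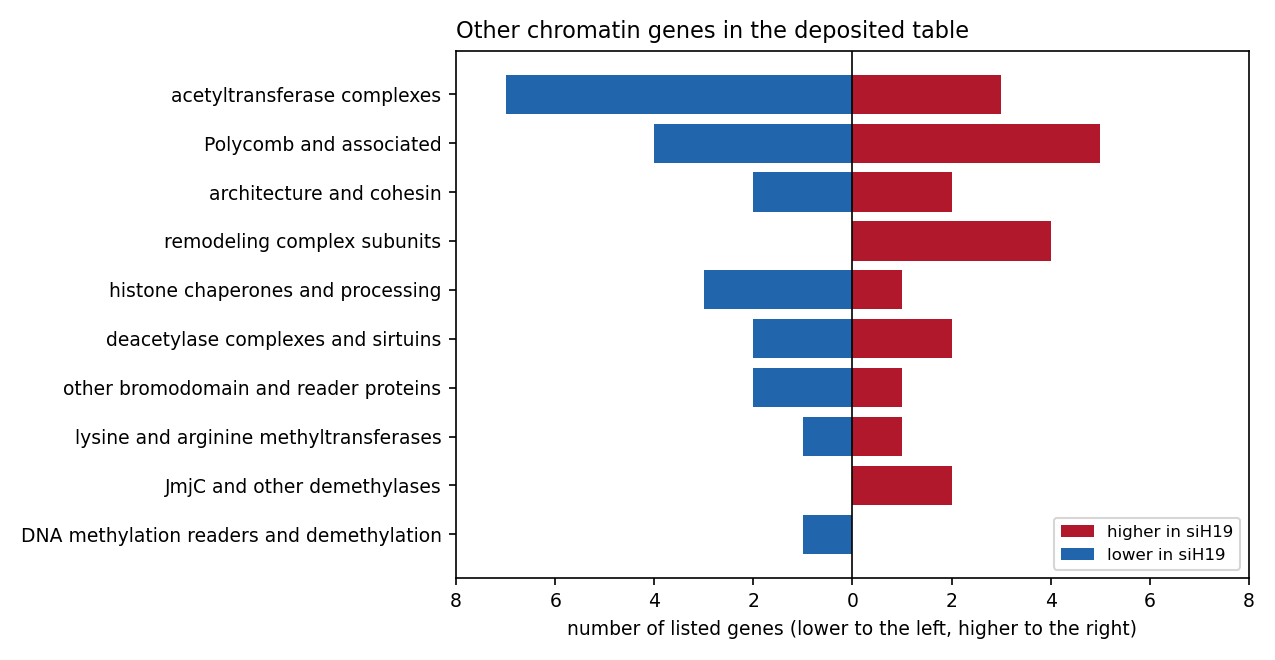
Number of listed genes higher (red, right) and lower (blue, left) in siH19 in each of 10 lists of chromatin genes outside the 26; the x axis counts genes and starts from 0 in each direction. The acetyltransferase list, which takes in Elongator subunits and NAA50, holds 3 higher and 7 lower genes. The 4 remodeling complex subunits are all higher.

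Short words in the 3′ untranslated region were also looked up, since fold changes over the whole table went with CATCAAA and GCAGTAC. Of 1923 listed genes whose 3′ untranslated region could be searched (GENCODE release 29), CATCAAA was found in 334 (17.4%), of which 244 were lower, and GCAGTAC in 183 (9.52%), of which 152 were higher. Of the 26 chromatin genes 23 could be searched, the histones excepted. CATCAAA was found in 2 of the 23 (8.70%), ARID4A and SMARCA1, both lower, and GCAGTAC in 3 (13.0%), PHF1, DNMT1 and HMGB1, all higher. Of all searched listed genes, 782 without CATCAAA were higher and 807 lower, and 720 without GCAGTAC were higher and 1020 lower. As the words were chosen from these same fold changes, the directions of these 5 genes were not tested and are no separate result. The sites of all 5 are shown with 10 bases on each side and the word in capitals, 5′ to 3′ in the mRNA sense.
ARID4A, 354 bases after the stop codon: acatgataaaCATCAAAatattaccca
ARID4A, 1049 bases after it: tgtctcagtcCATCAAAcagtatagaa
SMARCA1, 375 bases after it: ttcatgtcttCATCAAAatcctctcag
PHF1, 185 bases after it: atggctctgtGCAGTACctggttgagt
DNMT1, 181 bases after it: atcaaattgtGCAGTACtttgtgcatt
HMGB1, 1587 bases after it: atacctcttaGCAGTACcttttaaata

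The other 18 searched genes held neither word, among them TET1 and HMGN4, whose changes were larger than those of the 5. Of the 20 without GCAGTAC, 11 were higher and 9 lower, with a median log2 fold change of 0.27.

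Similar sequences elsewhere could affect some of these values. Windows of 76 bases, the number of sequencing cycles, were compared between 1 transcript of each gene and all transcripts of other genes in GENCODE. That transcript was the one with the longest 3′ untranslated region, only 1144 bases in all for CHD1L. Parts found only in other isoforms were not compared. All 336 windows of HIST1H3D also occur in an overlapping annotated coding gene on the same strand, so its count cannot be told apart from that gene's. Shared windows made up 22.9% for UHRF1, 16.2% for SETD8, 13.97% for ARID3B and 10.8% for HMGB1, mostly with processed pseudogenes. Such windows made up under 0.2% for every other member of the main set that is named here. HIST1H1B and HIST1H1D shared none. DNMT1 overlaps S1PR2 on the same strand, and PHF1, HDAC7 and SETD4 each overlap a coding gene on the opposite strand, none of them listed. No source at hand states how multiply mapped reads or strand were treated in counting, and the part of shared reads in these changes was not tested.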

How the data were processed

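Per the labels' protocols, a stranded total RNA kit was used for the 6 HepG2 libraries, 3 per group, and sequencing was paired-end with 76 cycles. The tools named in the submitters' processing notes are STAR 2.5.0a, Cufflinks 2.2.1 and DESeq2 1.0.0, with hg19 and no role or order; the gene annotation and the treatment of multiply mapped reads and strand are not given in the sources used here. Log2 counts per group and the log2 fold change with its SE were used as deposited. The authors' mean count is a normalized signal with decimals. The deposited q value, an adjusted p-value, is under 0.05 in every row. Library totals and thus depth are unknown, and columns of other samples numbered 0. The labels do not say whether libraries came from separate cultures, so SEs and adjusted p-values may reflect technical spread only. Whether fold changes were shrunken is not stated.

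The table was read with pandas 2.3.3 in Python, and fold changes equalled siH19 minus siCon within 0.01. No test was added: the table holds called genes only. The members, roles, further lists and words were chosen with earlier results of these data known. By the rule for naming, all but 1 of the 26 genes are named (that 1 is counted but not reported here), with the 2 largest changes of each further list of at least 3 listed genes; other further genes were chosen after their values were seen. Of the 1998 symbols, 1974 (98.8%) matched GENCODE release 29. Promoter windows are RefSeq's, and the 3′ untranslated region is the longest among basic coding transcripts, of at least 30 bases. The counting and word search were tested on simulated data. Because the file held the authors' comparison, the fit foreseen for values per library was not made. Alternatives were an adjusted p under 0.01, a mean count of at least 100, an absolute log2 fold change of at least 0.4, centring, no overlapping genes and a narrower membership.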

Additional observations from a re-analysis of the deposited data

How the results depend on the processing

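The share of the 26 chromatin genes that was lower, 34.6%, ran from 20.0% to 41.7% over the 6 alternatives. The share over all listed genes was recomputed under the 5 of these that apply to them. It ran from 54.9% to 56.6% without centring and was 49.9% with it, a value fixed by subtracting these genes' own median. The median log2 fold change of the 26, 0.32, ran from 0.30 to 0.465 without centring. The 0.465 was among genes with an absolute log2 fold change of at least 0.4, which keeps 10 genes. It became 0.585 when the table's median of -0.27 was subtracted, which follows from the subtraction alone. As the -0.27 is a median of called genes only, it is no measure of a shift between libraries. That centring turned CHD1L to higher and put ATAD2B at 0, leaving 18 higher and 7 lower, and changed no other direction among the 26. Of 13 roles 8 held genes of 1 direction only, many of them single genes; this became 5 of 8 at an adjusted p under 0.01 and 5 of 7 with the limit of 0.4, because fewer genes were left. The share of lower genes among the further chromatin genes was 55.6% at an adjusted p under 0.01 and 52.4% at a mean count of at least 100. No paired analysis was possible because the table gives 1 combined value per group, with no column for a numbered library, and for the same reason no library could be left out. Unknown depth limits what can be said of HIST1H1D, the gene with the lowest mean count.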
